A study of Mus musculus with 23 samples.

Results

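RUNX1-ETO was switched on with doxycycline (Dox) in HE2 cells, and the 3 induced arrays were set against 3 arrays of uninduced HE2 cells, chosen by their sample titles. These are 6 of the 23 arrays of the series, which also holds HE cells, progenitors and myeloid cells with and without Dox. HE2 is a late stage of haemogenic endothelium, the endothelium from which blood cells arise. The cells were sorted from mouse ES cell blast cultures as KIT+ Tie2+ CD41+. HE cells are KIT+ Tie2+ CD41− and progenitors are KIT+ Tie2− CD41+. All groups came from 1 ES cell line that carries a human RUNX1-ETO transgene behind a TET-responsive promoter and has wild-type RUNX1, and the strain given in the labels is C57BL/6. The induced HE2 cells received Dox from day 1 of the blast culture. No array of Dox-treated cells without the transgene was analysed here, so that responses to Dox itself and to RUNX1-ETO cannot be told apart. The titles call the arrays biological replicates without stating separate cultures. The p-values rest on the spread between arrays within all fitted groups, HE, progenitor and myeloid arrays included, and not within HE2 alone.

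RUNX1 is the transcription factor that drives the endothelial to haematopoietic transition, in which endothelial cells lose their junctions and endothelial genes and take on a blood cell program. RUNX1-ETO, the product of the t(8;21) translocation of acute myeloid leukaemia, joins the DNA-binding domain of RUNX1 to nearly the whole of ETO (RUNX1T1), a protein that recruits corepressors. HE2 cells stand in the middle of this transition and hold both programs, and the comparison asks which genes differ when the fusion protein is made before and during it.

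Values below are log2 intensities of 1 probe for each gene after background correction and quantile normalization, and a difference of 1 is 2-fold. A gene was called upregulated or downregulated at P of at most 0.001 with at least a 2-fold change in limma, and the adjusted P values are limma's with Benjamini-Hochberg adjustment. Between 64.5% and 74.4% of the spots were well above background on the uninduced HE2 arrays and between 66.1% and 68.0% on the induced ones, with no saturated spot. The arrays correlated at 0.979 to 0.992 within the uninduced group, at 0.966 to 0.989 within the induced group and at 0.938 to 0.975 between them. Induced array 3 was the farthest from the uninduced arrays, at 0.938 to 0.958.

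Of the genes that define the sort, Kit, the receptor for stem cell factor, read 12.65, 13.03 and 13.32 on the uninduced arrays and 12.65, 12.56 and 13.25 on the induced arrays, and these overlap. Tek, which encodes Tie2, read 11.13, 9.58 and 11.31 against 12.97, 13.30 and 10.95, with induced array 3 inside the uninduced range (log2 change 1.73, limma adjusted P = 0.112). Itga2b, which encodes CD41, read 11.72, 11.19 and 12.51 against 9.58, 10.75 and 7.73. Every induced array lay below every uninduced array, but the spread was wide and the difference of −2.46 did not pass the P threshold (limma adjusted P = 0.0139). It did pass when induced array 2 was left out, at −3.15, and with the slide as a block, at −2.56, and with the scan date as a block, at −2.46. None of the 7 genes of the sort marker list, which also holds genes not used in this sort, was called, and their median change was 0.40. Besides these 3, Kdr, the VEGF receptor FLK1, read 13.90, 13.61 and 14.30 against 14.81, 15.04 and 15.32 (1.12, limma adjusted P = 0.0144) without passing the threshold. Kdr did pass with the scan date as a block, at 1.12, and within slide 1, at 1.06. Cdh5, VE-cadherin, differed by 0.51, Pecam1 by 0.40 and Ptprc, CD45, by −0.91.

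The transgene encodes human RUNX1-ETO, and whether the mouse probes for Runx1 and Runx1t1 also read it was not tested. Runx1 read 12.92, 13.28 and 12.91 without Dox and 12.47, 12.82 and 12.93 with it, and the groups overlap (−0.29, limma adjusted P = 0.653). Runx1t1, the mouse ETO gene, rose from 9.79, 10.11 and 9.74 to 11.51, 11.92 and 12.46 (2.08 ± 0.33 SE, limma adjusted P = 0.000296). Of 6 tested genes of the RUNX and ETO family, Runx1t1 was the 1 called upregulated. Cbfa2t3, the ETO relative ETO2, was the 1 called downregulated. It went from 12.73, 13.44 and 13.06 to 11.64, 11.48 and 12.17 (−1.31). Its call was lost without uninduced array 2 or 3 or induced array 1 or 2, at −1.32 to −1.13.

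Genes that went up with Dox in HE2 cells outnumbered those that went down. Of 15202 tested genes, 786 were upregulated, which is 5.17% of them, and 312 were downregulated, which is 2.05%. Upregulated genes were 71.6% of all calls. The size of the median rise was 2.95-fold and of the median fall 2.70-fold. Rises of over 4-fold were seen for 206 genes and falls of over 4-fold for 48, and 9 genes rose over 16-fold while none fell as much. The induced and uninduced arrays did not overlap for all 786 upregulated and for 311 of the 312 downregulated genes. They also did not overlap for 4907 of all tested genes, which is 32.3%. Over all tested genes the median log2 change was −0.03 and 7278 read higher with Dox. The 6 arrays lay on 2 slides that each held both groups. Slide 1, with uninduced arrays 1 and 2 and induced array 1, gave 354 upregulated and 138 downregulated genes on its own. Slide 2, with uninduced array 3 and induced arrays 2 and 3, gave 554 and 129. In each of these fits 1 group had a single array, which was assumed to vary like the other groups. Of the 156 called genes named in the text or selected by the naming rule, none changed direction within either slide, while 71 missed a threshold within slide 1 and 64 within slide 2.

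**Figure D1:**
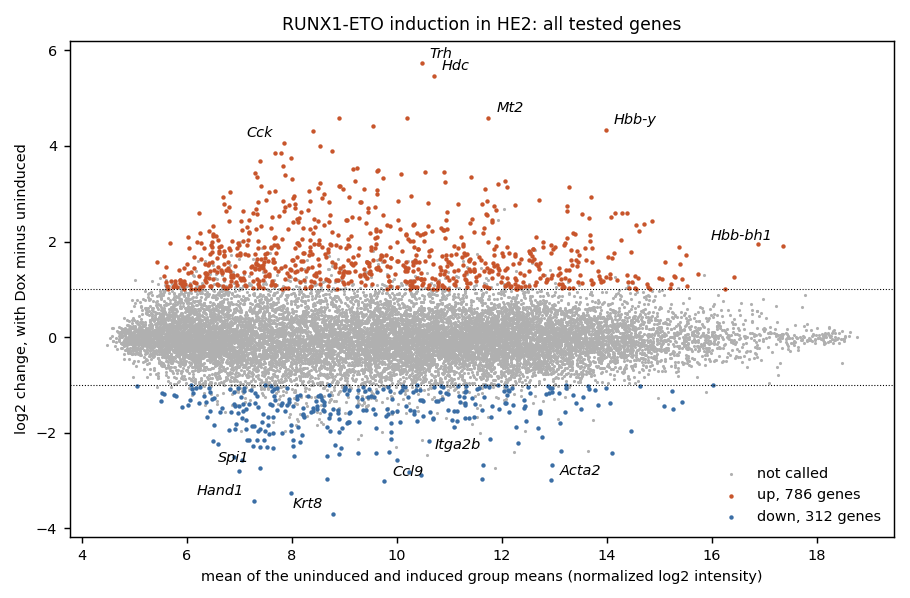
Log2 change with Dox in HE2 cells (y axis) against the mean of the uninduced and induced log2 intensities (x axis) for the 15202 tested genes, 1 point a gene, with the 786 upregulated and the 312 downregulated genes in colour and dotted lines at a 2-fold change. Rises reach further than falls, from Trh at 5.73 to Krt8 at −3.70, and Itga2b, which was not called, lies among the falls.

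The leading rises were of Trh and Hdc. Trh, which encodes the precursor of thyrotropin-releasing hormone, read 7.87, 7.69 and 7.30 on the uninduced arrays and 13.22, 13.44 and 13.38 on the induced arrays, a rise of 53-fold (5.73 ± 0.36 SE, limma adjusted P = 1.6e-08). Hdc, histidine decarboxylase, which makes histamine, read 8.42, 8.22 and 7.28 against 13.30, 13.21 and 13.82, a rise of 44.4-fold (5.47 ± 0.43). For both genes the lowest induced array stood far above the highest uninduced array. Ptprr, a receptor tyrosine phosphatase that acts on MAP kinases, read 6.51, 6.52 and 6.78 against 11.18, 10.59 and 11.79 (4.58 ± 0.26, limma adjusted P = 1.11e-08). Mt2, a metallothionein that binds zinc and other metal ions, read 9.47, 9.63 and 9.26 against 14.07, 13.53 and 14.51 (4.58 ± 0.29). Ptprr went from a dim signal to an intermediate one and Mt2 from an intermediate to a bright one. Nefh, the heavy neurofilament protein of neurons, read 7.95, 8.03 and 7.73 against 12.09, 12.22 and 13.11 (4.57). Itga8, the integrin alpha 8 chain, read 5.60, 6.45 and 6.70 against 10.12, 10.43 and 11.14 (4.31). Cck, the precursor of the peptide hormone cholecystokinin, read 5.70, 5.95 and 5.79 against 10.32, 9.46 and 9.86 (4.07 ± 0.39). The embryonic globin gene Hbb-y was also among the 15 leading rises. The others were Smtnl1 (4.42), Pla2g7 (4.0), Rnf207 (3.90), Ugt8a (3.86), Tal2 (3.84), Spink8 (3.76) and Alpl (3.68). Of these 15, 14 were also upregulated in HE cells, all but Cck, and 14 in progenitors, all but Pla2g7.

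**Figure D2:**
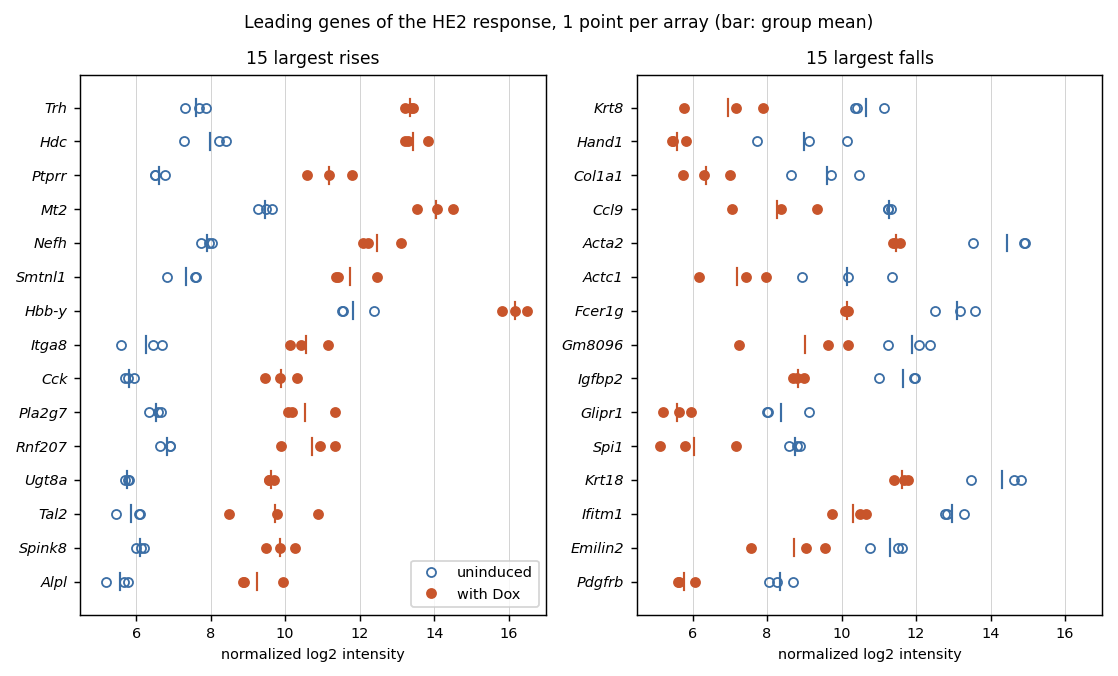
Log2 intensity (x axis) of the 15 genes with the largest rises and the 15 with the largest falls in HE2 cells, 1 gene a row, with 1 point for each of the 3 uninduced and 3 induced arrays and a bar at each group mean. The genes were picked among called genes whose induced arrays all lie on one side of the uninduced ones, so the separation in each row follows from the choice. They run from Trh with a rise of 5.73 to Krt8 with a fall of 3.70.

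RUNX1 and its fusion protein bind the sequence TGTGGT, and metal-response elements of the form TGCACNC or TGCGCNC are bound by the zinc sensor MTF1. The 250 bases before the transcription start were read for 5 genes that changed with Dox, to show where these letters occur. They are RefSeq sequences of the mouse build GRCm38.p6, written 5′ to 3′ on the strand of the gene, and capitals mark matches to TGTGGT or, for Mt2, to the metal-response element, on either strand. Trh is shown as the gene with the largest rise, Ptprr as the phosphatase with the largest, Epor for the erythroid genes, Ccl3 for the chemokines and Mt2 for the metallothioneins.
Trh, chr6:92244651-92244900, minus strand: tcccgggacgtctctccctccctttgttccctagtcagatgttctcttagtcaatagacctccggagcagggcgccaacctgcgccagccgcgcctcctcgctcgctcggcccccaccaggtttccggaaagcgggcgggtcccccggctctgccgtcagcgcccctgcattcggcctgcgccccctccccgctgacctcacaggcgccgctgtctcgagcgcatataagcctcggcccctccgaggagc
Ptprr, chr10:116018113-116018362, plus strand: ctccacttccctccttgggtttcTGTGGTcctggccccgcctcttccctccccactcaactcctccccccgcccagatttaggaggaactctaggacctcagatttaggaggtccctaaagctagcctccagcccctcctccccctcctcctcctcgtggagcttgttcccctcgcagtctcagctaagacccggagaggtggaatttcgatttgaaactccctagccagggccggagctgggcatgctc
Epor, chr9:21963577-21963826, minus strand: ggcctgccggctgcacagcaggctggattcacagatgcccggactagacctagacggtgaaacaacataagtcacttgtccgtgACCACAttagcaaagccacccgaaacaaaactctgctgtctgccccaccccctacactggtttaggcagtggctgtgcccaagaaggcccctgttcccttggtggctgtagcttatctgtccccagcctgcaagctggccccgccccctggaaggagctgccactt
Ccl3, chr11:83649379-83649628, minus strand: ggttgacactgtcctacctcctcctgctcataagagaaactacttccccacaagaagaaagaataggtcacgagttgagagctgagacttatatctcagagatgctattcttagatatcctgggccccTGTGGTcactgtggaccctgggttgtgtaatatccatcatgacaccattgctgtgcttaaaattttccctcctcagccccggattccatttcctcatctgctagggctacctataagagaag
Mt2, chr8:94172368-94172617, plus strand: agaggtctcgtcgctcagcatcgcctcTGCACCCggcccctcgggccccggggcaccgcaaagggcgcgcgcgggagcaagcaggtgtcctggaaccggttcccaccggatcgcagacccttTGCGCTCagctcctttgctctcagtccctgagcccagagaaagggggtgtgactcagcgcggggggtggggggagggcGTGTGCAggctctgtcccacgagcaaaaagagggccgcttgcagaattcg

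The stretch of Trh held no TGTGGT. That of Ptprr held 1, starting 227 bases before the transcription start, and this was the only 1 of its 4 annotated starts with a match. Epor held 1 at 166 bases and Ccl3 held 1 at 122 bases. Mt2 held 3 metal-response elements, at 223, 128 and 50 bases. Windows of 300 bases, from 250 before to 50 after the start, could be matched to 12066 of the tested genes. TGTGGT was present in 85 of 586 upregulated genes (14.5%), in 48 of 239 downregulated genes (20.1%) and in 15.6% of all matched genes. It was present in 16.8% of all 32851 windows. Of the 156 called genes named in the text or selected by the naming rule, 118 could be matched, and TGTGGT was present in 12. The printed stretches are therefore not typical of the named genes. The metal-response element was present in 40.6% of the upregulated genes, in 41.8% of the downregulated genes, in 37.9% of all matched genes and in 25.7% of all windows. A match describes the letters of these windows and shows neither binding nor a cause.

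Endothelial genes were higher in induced HE2 cells, and none of those listed was called downregulated. Over all tested genes, 5.17% were upregulated and 2.05% downregulated, and the list counts here and below stand beside these shares. The members of the lists were chosen with earlier results of these data known. Of 33 tested genes of the endothelial surface and of cell junctions, 12 were upregulated and 0 downregulated. Their median change was 0.88 against −0.03 for all tested genes, and 31 of the 33 read higher with Dox. Cldn5, the tight junction protein claudin 5, rose from 10.51, 9.88 and 10.65 to 13.94, 12.71 and 13.98 (3.20 ± 0.52 SE, limma adjusted P = 0.000303). Stab1, a scavenger receptor of sinusoidal endothelium, rose from 10.45, 10.25 and 10.02 to 13.16, 12.58 and 13.32 (2.78). Emcn, the sialomucin endomucin, rose from 8.82, 7.58 and 9.39 to 11.76, 11.87 and 10.71 (2.84). The uninduced and induced arrays did not overlap for any of the 3, and the spread was widest for Emcn. Robo4, an endothelial guidance receptor, rose from 12.35, 12.14 and 11.28 to 14.34, 14.00 and 15.34 (2.64). Ptprb, the phosphatase VE-PTP that acts on Tie2 and VE-cadherin, rose from 12.83, 12.94 and 12.86 to 14.95, 15.70 and 15.77 (2.59). The other upregulated members were Procr, Icam2, Thbd, Lyve1, Esam, Flt1 and Flt4.

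The transcription factors of endothelium followed the same direction. Of 22 tested factors 6 were upregulated and 0 downregulated, with a median change of 0.57 and 19 reading higher. Epas1, the hypoxia-inducible factor HIF-2 alpha, rose from 12.82, 12.68 and 11.77 to 14.82, 14.60 and 15.33 (2.5). Klf2, a factor induced by blood flow, rose from 12.24, 12.63 and 12.94 to 13.70, 15.52 and 15.02 (2.14). Ets1 rose from 12.77, 12.26 and 12.59 to 14.19, 14.37 and 14.44 (1.79). Fli1, an ETS factor shared by endothelium and blood, rose from 12.50, 12.73 and 12.50 to 13.86, 14.03 and 14.09 (1.41 ± 0.19, limma adjusted P = 7.23e-05). For Fli1 the arrays of each group lay close together, and the induced arrays of Ets1 and Fli1 were all above the uninduced ones. Sox17, a factor of arterial and haemogenic endothelium, rose from 10.67, 10.90 and 10.45 to 11.75, 11.76 and 12.77 (1.42 ± 0.30). Its call was lost without uninduced array 3 (1.31) or induced array 3 (1.08). Foxc1, at 1.57, lost its call without the same arrays, at 1.28 to 1.44. Erg read 10.86, 10.36 and 10.19 against 10.51 and 11.31, with induced array 2 missing because its spot was marked as an outlier, and differed by 0.44.

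The 19 tested Notch and arterial genes did not share a direction, with a median change of 0.28. Efnb2, the arterial ligand ephrin B2 (1.77), Notch4 (1.54) and Ephb4, the venous receptor for ephrin B2 (1.12), rose. Unc5b, a netrin receptor (−1.88), and Notch2 (−1.04) fell. The change of Ephb4 was under 2-fold without uninduced array 3, at 0.97, and the call of Notch2 was lost without uninduced array 2 or induced array 1 or 2, at −0.95 to −0.87. With the mean of all probes of a gene, the calls of Efnb2, Ephb4 and Notch2 were lost. The Notch ligand Jag1 differed by 0.25.

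Genes of red cells were higher as well. Of 20 tested erythroid and globin genes 5 were upregulated and 0 downregulated, with a median change of 0.55 and 15 reading higher. Hbb-y, the embryonic beta-like globin, rose from 11.54, 11.54 and 12.38 to 15.81, 16.16 and 16.50, which is 20.2-fold (4.34 ± 0.31 SE, limma adjusted P = 7.98e-08). Hbb-bh1, another embryonic globin, was already bright, and rose from 16.14, 16.58 and 16.50 to 18.19, 18.45 and 18.27, which is 3.74-fold. Globin genes are close copies of each other, and whether one probe also reads the transcripts of another was not tested. Alas2, the erythroid enzyme that starts haem synthesis, rose from 9.63, 10.97 and 9.77 to 13.21, 13.22 and 13.24, which is 8.54-fold. The induced arrays of Alas2 were nearly equal. Gata1, the master factor of red cells and megakaryocytes, rose from 10.38, 11.10 and 11.25 to 12.54, 13.11 and 13.28 (2.07 ± 0.39, limma adjusted P = 0.00104). Epor, the erythropoietin receptor, rose from 11.40, 12.18 and 11.58 to 13.02, 13.29 and 13.95 (1.70). The summed intensity of 4 markers of primitive erythroid cells, Hbb-bh1, Hbb-y, Hba-x and Alas2, was 76400 to 103000 without Dox and 367000 to 442000 with it. Hbb-bh1 made up most of it. Hba-x, also a globin gene, was the one of these 4 that was not called. It read 9.18, 8.75 and 10.74 against 9.265, 9.77 and 9.88, and the groups overlap. In sorted bulk cells, a change in the number of cells of a type and a change in RNA per cell cannot be told apart, and the part of such cells in these values was not tested.

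Megakaryocyte and platelet genes moved in both directions. Of 20 tested, 4 were upregulated and 1 was downregulated, yet the median change was −0.31 and 6 read higher. Clec1b, the platelet receptor CLEC-2, rose from 11.76, 11.68 and 11.73 to 14.78, 14.51 and 15.28 (3.13 ± 0.27, limma adjusted P = 6.49e-07). Treml1, a platelet granule receptor, rose from 6.89, 8.16 and 8.61 to 10.54, 11.23 and 12.40 (3.50), and Alox12, platelet 12-lipoxygenase, rose by 2.55. The calls of Gp5, a platelet glycoprotein that rose by 1.02, and of Pf4, platelet factor 4, which fell by 1.72, were each lost without any of 4 single arrays. Those 4 were uninduced arrays 1 and 2 and induced arrays 1 and 2 for Gp5 (0.85 to 1.03), and uninduced arrays 2 and 3 and induced arrays 1 and 2 for Pf4 (−1.70 to −1.37). The summed intensity of Gp1ba, Gp9, Pf4 and Ppbp was 1760 to 3630 without Dox and 1010 to 1680 with it, with Ppbp not well above background on any of the 6 arrays. Of 13 tested mast cell and basophil genes, 2 were upregulated, Hdc and Il1rl1, the IL-33 receptor. Il1rl1 rose from 6.69, 6.75 and 7.13 to 9.39, 9.89 and 9.15 (2.62). The median of that list was −0.05, and the defining mast cell markers Cma1, Ms4a2 and Fcer1a were not well above background on any HE2 array. The fourth marker, Cpa3, a mast cell protease, was above background on all 6 arrays and read 6.88, 7.28 and 7.41 against 8.61, 8.41 and 7.80, without overlap and without a call. The summed intensity of the 4 markers was 217 to 257 without Dox and 313 to 481 with it, and the part of mast cells in these values was not tested.

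Among the factors that set up blood cells, the early haematopoietic ones were split and the myeloid regulator PU.1 fell. Of 28 tested early haematopoietic factors, 3 were upregulated and 3 downregulated, with a median change of 0.30. Gata1, Fli1 and Hhex (1.21) rose. Ikzf1, the lymphoid and myeloid factor IKAROS, fell from 9.59, 10.03 and 10.03 to 8.34, 8.23 and 8.32 (−1.58 ± 0.26 SE, limma adjusted P = 0.000345). Lyl1, a bHLH relative of TAL1, fell from 15.64, 16.002 and 15.79 to 14.41, 14.36 and 14.37 (−1.44). Nfe2, a factor of megakaryocytes and red cells, fell from 13.86, 14.05 and 14.39 to 12.60, 12.93 and 12.63 (−1.38). In each of the 3 falls the induced arrays lay close together, below every uninduced array. Tal1 differed by 0.43, Meis1 by 0.87 and Gata2 by 0.62 without passing the threshold. Gfi1 and Gfi1b, repressors that silence endothelial genes during the transition, differed by 0.46 and −0.12 (limma adjusted P = 0.507 and 0.846). Gata2, Gfi1 and Gfi1b were chosen after their values were seen.

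Spi1, which encodes PU.1, fell from 8.6, 8.81 and 8.88 to 5.79, 7.16 and 5.14, which is 6.65-fold (−2.73 ± 0.37, limma adjusted P = 5.42e-05). The induced arrays were spread widely, but the highest of them stood well below the lowest uninduced array. Of 12 tested myeloid factors, Spi1 and Cebpb were downregulated and Maf, Klf4 and Egr2 were upregulated, with a median of 0.27. Maf, a factor of macrophages and lymphocytes, rose from 5.51, 5.83 and 5.44 to 8.02, 9.68 and 9.35 (3.42). Klf4, a factor of monocytes and endothelium, rose from 10.42, 10.68 and 10.19 to 12.55, 13.10 and 13.34 (2.57). Cebpb fell from 13.22, 13.34 and 13.09 to 11.29, 12.10 and 10.61 (−1.88), and its call was lost without any 1 uninduced array or without induced array 1 or 3 (−1.95 to −1.52). Egr2 rose by 1.4, a call lost without uninduced array 1 or 2 or induced array 2 or 3 (1.18 to 1.38). Cebpa, the granulocyte factor, was dim, with overlapping groups and a change of −0.07, and Irf8 differed by 0.68.

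Of 26 tested macrophage and myeloid receptor genes 6 were downregulated and 2 upregulated, beside 2.05% and 5.17% of all tested genes. Their median was −0.21, and 11 of the 26 read higher. Fcer1g, the signalling chain shared by Fc receptors, fell from 12.51, 13.19 and 13.59 to 10.14, 10.10 and 10.17, which is 7.78-fold (limma adjusted P = 3.83e-05). Ncf1, a subunit of the phagocyte oxidase, fell from 8.39, 8.14 and 8.88 to 6.98, 6.43 and 6.09 (−1.97). Csf1r, the M-CSF receptor, fell from 11.34, 10.699 and 10.78 to 9.05, 9.57 and 8.90 (−1.77). The call of Csf1r was lost with the mean of all its probes, at −0.86, and within slide 1 (−1.97) and slide 2 (−1.55). All induced arrays of these 3 genes were below all uninduced ones. Cd52 (−1.61) and Coro1a (−1.35) also fell. Cd14 fell by 2.30, a call lost without uninduced array 1 or 2 or induced array 1 or 3 (−2.41 to −1.92). Mrc1, the mannose receptor of macrophages and sinusoidal endothelium, rose from 8.58, 9.37 and 9.60 to 12.01, 12.53 and 13.37 (3.46). Ncf4, another oxidase subunit, rose from 10.57, 10.48 and 10.17 to 12.07, 11.96 and 12.22 (1.68). The summed intensity of the macrophage markers Csf1r and Adgre1 was 1760 to 2690 without Dox and 549 to 837 with it. Csf1r made up most of it. Adgre1 was dim, at 6.598, 6.682 and 6.483 against 6.483, 6.305 and 6.153, and was not called. Cd68, also listed as a marker, had no probe. The part of macrophages in these values was not tested.

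Of 11 tested neutrophil granule genes, 0 were upregulated and Ltf and Mpo were downregulated, with a median of −0.83 and 2 of the 11 reading higher. Mpo, myeloperoxidase, fell from 12.82, 13.02 and 13.68 to 11.30, 11.89 and 11.90 (−1.48). Ltf, lactoferrin, fell from 7.77, 7.54 and 8.95 to 6.40, 6.43 and 5.65 (−1.93). The call of Mpo was lost without any single array but uninduced array 1 (−1.58 to −1.23), and that of Ltf without uninduced array 3 (−1.50) or induced array 3 (−1.67).

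Chemokines and inflammatory genes had the list with the most downregulated members, 10 of 31 tested, with 2 upregulated, a median of −0.77 and 7 reading higher. Of all tested genes, 2.05% were downregulated and 5.17% upregulated. Ccl9, a chemokine of myeloid cells, fell from 11.24, 11.25 and 11.32 to 9.33, 8.38 and 7.05, which is 8.09-fold (−3.02 ± 0.50 SE, limma adjusted P = 0.000399). The 3 uninduced arrays were nearly equal and the 3 induced arrays were spread widely. Ccl6 fell from 11.21, 10.32 and 10.95 to 9.21, 8.49 and 7.51 (−2.42), and Ccl3, a macrophage inflammatory chemokine whose promoter is printed above, fell from 10.25, 9.89 and 10.12 to 8.40, 8.08 and 6.86 (−2.31). Induced array 3 was the lowest for all 3 of these chemokines. Alox5, 5-lipoxygenase, fell by 2.40, a call lost without uninduced array 1 or induced array 2 or 3 (−2.35 to −2.17). Ccl17, Ptgis, Cx3cl1, Cxcr2, Ccl4 and Alox5ap were the other downregulated members. Hpgd, which inactivates prostaglandins, rose from 7.42, 7.32 and 7.55 to 10.96, 10.19 and 10.44 (3.1), and the chemokine Cxcl1 rose by 1.44.

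Of 24 tested haematopoietic cytokine receptors and ligands 8 were upregulated and 1, Csf1r, was downregulated, with a median of 0.52 and 17 reading higher. Over all tested genes these shares were 5.17% and 2.05%. The upregulated members were Il1rl1, Il10ra (1.88), Csf2rb2, Epor, Tgfbr3 (1.56), Tgfbr2, Lifr and Ifnar1. The call of Csf2rb2, the mouse IL-3 receptor beta chain, which rose by 1.77, was lost without uninduced array 3 or induced array 1 or 2 (1.49 to 1.66). That of Tgfbr2, at 1.45, was lost without uninduced array 1 or induced array 3 (1.31 to 1.35). Of 15 tested metallothionein and zinc genes, Mt2 and Mt1 were the 2 called, and both rose. Mt1 rose from 12.62, 12.37 and 11.73 to 15.23, 14.77 and 15.49 (2.92), and the median of this list was 0.28. Of 17 tested neuropeptide and peptide hormone precursors 4 rose, namely Trh, Cck, Pnoc and Nts, while the median was 0.09. Pnoc, the nociceptin precursor, rose from 7.05, 7.30 and 7.66 to 10.40, 10.07 and 11.03 (3.16), and Nts, the neurotensin precursor, from 8.56, 7.85 and 7.33 to 11.26, 10.04 and 10.89 (2.82).

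The largest fall was that of Krt8, and genes of muscle and mesenchyme were among the 15 largest. Krt8, a keratin of simple epithelia, fell from 11.14, 10.37 and 10.43 to 7.18, 7.88 and 5.78, which is 13.0-fold (−3.70 ± 0.61 SE, limma adjusted P = 0.000379). Its partner Krt18 fell from 14.62, 14.80 and 13.46 to 11.40, 11.67 and 11.79 (−2.67). Of 22 tested keratin and junction genes these 2 and Pkp2, a desmosome protein (−1.69), were downregulated and 0 upregulated, with a median of −0.36. Hand1, a factor of heart and extraembryonic mesoderm, fell from 9.12, 10.15 and 7.74 to 5.81, 5.46 and 5.45 (−3.43), and Acta2, smooth muscle actin, from 14.91, 14.91 and 13.52 to 11.38, 11.42 and 11.56 (−2.99). For Krt18, Hand1 and Acta2 the lowest uninduced array was array 3, which was the only uninduced HE2 array on slide 2. This array was also the lowest uninduced one for Actc1, Tagln and Col1a1. Of 27 tested cardiac and smooth muscle genes 8 were downregulated and 3 upregulated, with a median of −0.12. Actc1, cardiac actin, fell by 2.97, a call lost without induced array 1 (−2.46). Tagln (−2.42), Myl9, Acta1 (−2.01), Smarcd3 and Cnn1 were the other downregulated members. The call of Cnn1, calponin, at −2.48, was lost without any single array but uninduced array 3 (−2.62 to −1.97). The upregulated members were Tnni3 (2.43), Myl2 and Tbx5, at least 2.66-fold higher because its probe was not well above background on the uninduced arrays. Myl2, at 1.17, was under the fold threshold without induced array 3 (0.99).

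Col1a1, a chain of type I collagen, fell from 9.70, 10.47 and 8.64 to 5.74, 7.01 and 6.31 (−3.25), and Pdgfrb, the PDGF receptor of pericytes and mesenchyme, from 8.06, 8.70 and 8.27 to 5.65, 6.06 and 5.62 (−2.57, limma adjusted P = 5.63e-06). Of 22 tested collagens Col5a3 (1.97) and Col6a1 (1.44) rose and Col1a1, Col4a6 (−1.43) and Col4a5 (−1.28) fell, with a median of −0.13. The call of Col4a6 was lost without uninduced array 2 or induced array 1 (−1.19 to −1.16), and that of Col4a5 without uninduced array 2 or 3 or induced array 1 or 3 (−1.32 to −1.04). Of 29 tested mesenchymal and matrix genes 4 were upregulated, Tnc (2.63), Fstl1 (2.36), Timp3 (1.83) and Thy1 (1.80), and 2 downregulated, Pdgfrb and S100a4 (−1.79), with a median of −0.01. The summed intensity of 5 cardiac and smooth muscle markers, Tnnt2, Myl7, Actc1, Acta2 and Tagln, was 30300 to 105000 on the uninduced arrays and 11800 to 12600 on the induced ones. Tagln and Acta2 made up most of it. The cardiac markers Tnnt2 (10.68, 10.12 and 9.97 against 11.02, 10.43 and 9.62) and Myl7 (5.57, 5.2 and 5.58 against 5.56, 5.71 and 5.34) overlapped between the groups. That of the epithelial markers Epcam, Cdh1, Krt8 and Krt18 was 12800 to 30000 against 2930 to 3680, with only the keratins bright enough to be tested. That of the mesenchymal markers Col1a1, Col3a1, Pdgfra and Twist1 was 735 to 1860 against 447 to 553. Col1a1 was the one of these 4 that was called. Col3a1 read 7.48, 7.44 and 7.17 against 7.58, 7.55 and 8.15, higher with Dox without overlap but not called, and Pdgfra and Twist1 overlapped. The summed levels of these 3 marker sets did not overlap between the groups, and what part cells of these kinds had in the falls was not tested. Visceral endoderm markers (163 to 177 against 107 to 129) and pluripotency markers (188 to 238 against 244 to 343) were dim throughout.

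The 15 largest falls that separated the groups also held Ccl9, Actc1, Fcer1g, Igfbp2, a binding protein for insulin-like growth factors (−2.82), Glipr1 (−2.79), Spi1, Krt18, the interferon-induced Ifitm1 (−2.66), Emilin2 (−2.57), Pdgfrb and Gm8096. Gm8096 is annotated as a pseudogene. It fell from 12.07, 11.25 and 12.38 to 9.65, 10.18 and 7.24 (−2.87), a call lost without uninduced array 3 (−2.63). Of the 15 genes, 8 were also downregulated in HE cells and 3 in progenitors.

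Most genes of cell growth read slightly lower with Dox, and few were called. Of 41 tested cell cycle genes 1 was downregulated, Tk1, thymidine kinase, which fell from 13.86, 13.98 and 14.06 to 13.03, 12.64 and 12.60 (−1.21). The median of this list was −0.52, and 3 of the 41 read higher with Dox. Of 35 tested ribosome biogenesis genes 0 read higher, the median was −0.55 and 1 was downregulated, Rrp9 (−1.26), whose change was under 2-fold without induced array 3 (−0.99). Oxidative phosphorylation had 33 tested genes, a median of −0.18 and 1 call, Cyc1, which fell by 1.02 and missed the fold threshold without induced array 3 (−0.84). Among 27 tested genes of amino acid synthesis and the integrated stress response, 3 were downregulated and 0 upregulated, with a median of −0.08. They were Cebpb, Phgdh, the first enzyme of serine synthesis (−2.39), and Mthfd2 (−1.89), whose call was lost without any 1 uninduced array (−1.90 to −1.87). Of 30 CDK inhibitors and p53 targets, Sesn1 (1.64) and Btg2 (1.05) rose and Perp (−1.80) fell, with a median of 0.18. Btg2 lost its call without uninduced array 2 or 3 or induced array 2 (0.80 to 1.01) and Perp without induced array 3 (−1.45). Of 33 tested glycolysis and hypoxia genes Aldoc and Kdm3a (1.24) rose and Egln3 and Ldhb (−1.12) fell, with a median of −0.06. Aldoc, at 1.32, lost its call without uninduced array 1 or 3 or induced array 3 (1.06 to 1.30). Egln3, at −1.52, lost it without uninduced array 1 or 2 or induced array 3 (−1.47 to −1.26).

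Signalling and adhesion lists held calls in both directions, with 7.22% of all tested genes called. Of 14 tested receptor tyrosine phosphatases, Ptprr and Ptprb rose and Ptpre (−1.30) and Ptprj (−1.21) fell, with a median of 0.75. Ptprj lost its call with the mean of all its probes. Of 36 tested genes of ERK feedback and MAP kinases, Dusp10 (1.91), Etv1 (1.58) and Egr2 rose, with a median of 0.16. Etv1 lost its call with the mean of all its probes. Of 18 AP-1 and ATF factors, 0 rose and Batf3 (−1.78) and Batf (−1.14) fell, with a median of 0.11. Batf3 lost its call without uninduced array 1 or 2 or induced array 2 or 3 (−1.86 to −1.33), and Batf without uninduced array 2 or induced array 1 or 3 (−1.15 to −0.89). Of 38 tested integrin and focal adhesion genes 5 rose, Itga8, Itgb4 (3.47), Itgb7 (2.04), Itga9 (1.63) and Itga6, and 2 fell, Itgb5 (−2.27) and Actn1 (−1.78), with a median of 0.01. Itgb5 lost its call without uninduced array 2 (−2.07). Of 33 tested TGF-beta and BMP genes, 4 rose, namely Tgfbr3, Tgfbr2, Acvrl1 and Acvr1, and Inhba fell, with a median of 0.10. Inhba was at least 2.75-fold lower, as its probe was not well above background on the induced arrays. The call of Acvr1, at 1.07, was lost without uninduced array 3 or induced array 2 or 3 (0.87 to 0.98), that of Acvrl1, at 1.15, without any single array but induced array 2 (0.77 to 1.29), and that of Inhba without any single array but uninduced array 3 (−1.54 to −1.27). Of 28 tested interferon and antigen presentation genes, Ifitm1 and Usp18 (−1.97) fell and 0 rose, with a median of −0.08.

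The remaining lists cover other lineages, leukaemia markers and patterning genes. Of 22 tested markers of t(8;21) leukaemia, Trh, Ncam1 (2.34), Runx1t1 and Hspb1 rose and Perp, Pf4 and Pik3r2 (−1.53) fell, with a median of 0.38. Hspb1, at 1.72, lost its call without any of 4 single arrays, uninduced array 3 and each induced array (1.24 to 1.81). Of 26 tested HOX, MEIS and PBX genes, Hoxa5 (2.00), Hoxb7 (1.86), Hoxd1 (1.61) and Hoxd3 (1.51) rose and Hoxb2 fell, with a median of 0.46. Hoxb2, at −1.14, lost its call without any single array but uninduced array 3 (−1.26 to −0.94). Of 14 tested early lymphoid genes, Ly6d rose (3.58) and Ikzf1 fell, with a median of 0.21. Of 10 tested endoderm and liver genes, Cubn (1.67) and Sox17 rose and Foxa2 fell, with a median of −0.00054. Foxa2, at −2.01, lost its call without uninduced array 1 or 2 or induced array 1 (−2.07 to −1.64). Of 12 tested pluripotency and primitive streak genes, Klf2 and Eomes (1.44) rose and Lin28a (−1.54) and Dnmt3b (−1.06) fell, with a median of 0.26. Lin28a lost its call without uninduced array 2 (−1.31), and Dnmt3b without uninduced array 2 or 3 or induced array 1 or 3 (−1.08 to −0.92).

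**Figure D3:**
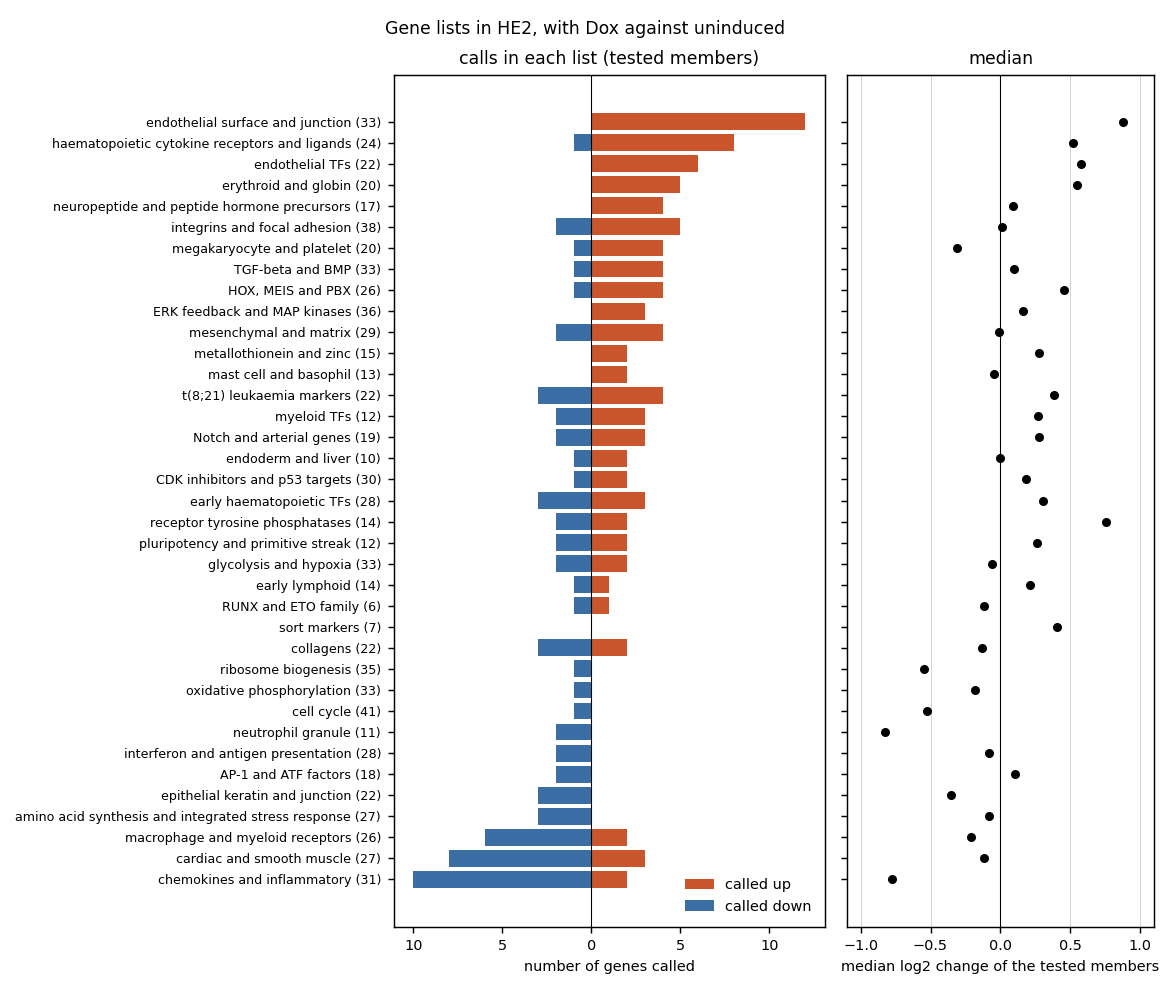
Left, number of tested members called upregulated (to the right of 0) and downregulated (to the left) in HE2 cells for each gene list, with the number tested in parentheses; right, the median log2 change of the tested members. Endothelial surface genes (12 up, 0 down) and chemokines (2 up, 10 down) stand at opposite ends, and the ribosome biogenesis list has a median of −0.55 with 1 call.

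How the response of HE2 cells differed from that of HE cells, the stage before CD41 appears, was tested directly as the difference of the 2 responses. The comparisons share no arrays. The response was higher in HE2 for 95 genes (0.625% of those tested) and lower for 108 (0.71%). At the largest adjusted P of these calls, 0.0715, they are less firm than those within HE2. Within slide 1, 49 genes differed, and within slide 2, 193. Of the 203 genes, 97 were also called in HE2 itself. Among these 97, 42 were upregulated in HE2 with a higher response than in HE, 37 were downregulated with a lower response, 13 were upregulated with a lower response and 5 downregulated with a higher one. In HE cells 77 of the 97 were not called, 19 were called in the same direction and 1, Slc2a6, a glucose transporter relative, in the opposite one. Slc2a6 fell from 9.15, 9.19 and 9.36 to 8.14, 7.72 and 7.32 in HE2 (−1.51) and rose by 1.13 in HE. Of the 108 genes with a lower response in HE2, 58 had a mean under 6.5 in uninduced HE, the level a gene had to reach on some array to be tested, and of the 37 that were downregulated in HE2, 29 did. For 19 of the 37, the level in uninduced HE less the fall in HE2 lay under the lowest value of any gene on any array, so that an equal fall could not have been measured in HE. Of the 95 genes with a higher response, 4 had such a mean.

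Spi1 was among the genes with a lower response in HE2. It fell by 2.73 in HE2 and differed by −0.30 in HE, a difference of −2.44. In HE it was near background already without Dox, at 5.71, 5.02 and 5.68 with 2 of 3 arrays well above background, and a fall of that size could not have been measured there. In uninduced HE cells it read 5.47 ± 0.39 (SD, n = 3) and in uninduced HE2 cells 8.76 ± 0.15, while induced HE2 cells read 6.03 ± 1.03. Without Dox, Spi1 was thus higher in HE2 than in HE, and with Dox its HE2 level lay near that of HE. Ikzf1 had the same order of levels, with 6.28 in uninduced HE, 9.88 in uninduced HE2 and 8.30 in induced HE2, and a difference in response of −2.26. The chemokines Ccl6 (−3.72), Ccl9 (−3.44) and Ccl3 (−2.52), the oxidase gene Ncf1 (−2.26), the matrix gene Emilin2 (−3.20) and the tubulin Tuba8 (−2.69) also had lower responses in HE2. Without Dox, HE cells read 6.19 for Ccl9, 5.44 for Ccl3, 6.06 for Ncf1, 6.28 for Ikzf1 and 5.69 for Tuba8, all under 6.5, and 7.42 for Ccl6 and 7.12 for Emilin2. Ccl9 read 11.27 ± 0.05 in uninduced HE2 and 8.25 ± 1.15 in induced HE2.

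Genes with a higher response in HE2 included Sox17, which rose by 1.42 in HE2 and differed by −0.53 in HE, a difference of 1.95. Sox17 read 12.34 ± 0.27 (SD, n = 3) in uninduced HE, 10.67 ± 0.23 in uninduced HE2 and 12.09 ± 0.58 in induced HE2, so that here the level was lower in HE2 than in HE without Dox. Cck rose by 4.07 in HE2 and differed by 0.70 in HE, a difference of 3.37. Dupd1, a dual-specificity phosphatase, had a difference of 2.34, Flrt3, an adhesion protein that binds FGF receptors, of 2.34, Upb1, a pyrimidine breakdown enzyme, of 2.32, Dapk2, a death-associated kinase, of 2.26, and Cxcl1 of 2.01. The difference of Flrt3 was lost without any of 9 of the 12 HE and HE2 arrays (1.89 to 2.46), whereas those of the other genes named here and in the paragraph before held without any 1 array. It also missed the P threshold with the replicate number as a block (2.34). Of 24 named differences from HE, 20 missed a threshold within slide 1 and 13 within slide 2, among them those of Spi1, Ccl9 and Sox17 in both, with none changed in direction. The own HE2 call of Dupd1, at 1.22, was lost without uninduced array 1 or 2 or induced array 2 or 3 (1.00 to 1.27). Mt1 rose in both stages, by 2.92 in HE2 and by 5.41 in HE. Uninduced HE cells read 10.28 ± 0.67 for Mt1 and uninduced HE2 cells 12.24 ± 0.46, while the induced cells read 15.69 ± 0.08 and 15.16 ± 0.36.

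**Figure D4:**
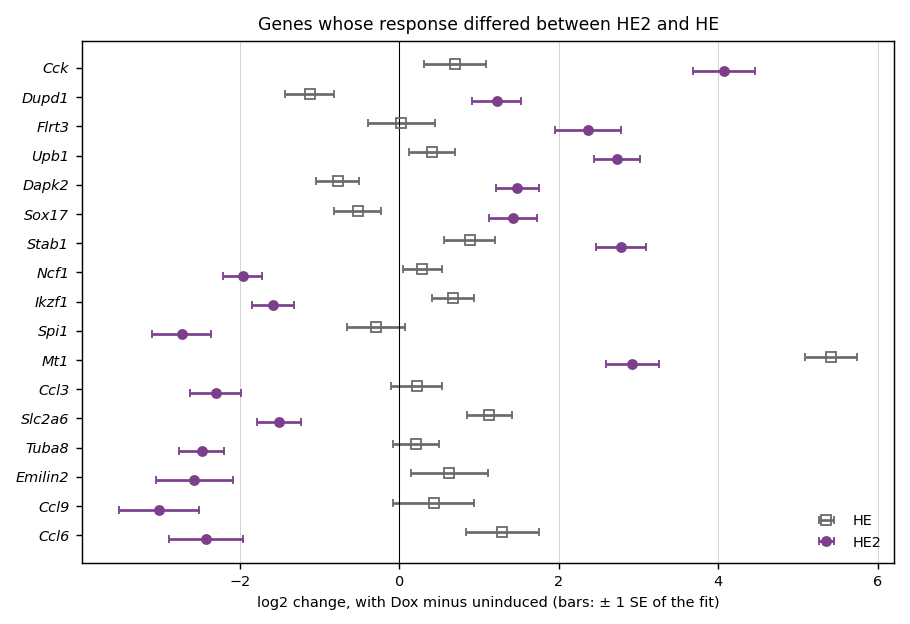
Log2 change with Dox (x axis, bars ± 1 SE of the fit) in HE2 cells (filled circles) and in HE cells (open squares) for 17 genes whose responses differed, 1 gene a row. Cck changed by 4.07 in HE2 and 0.70 in HE, Ccl9 and Spi1 fell in HE2 with HE changes of 0.43 and −0.30, and Mt1 rose in both.

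Both stages shared many of their calls. Of the genes upregulated in HE2, 426 were upregulated in HE as well, which is 54.2% of the 786 in HE2 and 59.7% of the 714 in HE. Of those downregulated, 133 were shared, which is 42.6% of the HE2 genes and 36.5% of the 364 HE genes. In progenitors the induced group had 2 arrays. Of these, array 2 lay on slide 3 and had another scan date than the other fitted progenitor arrays and all HE2 arrays. Slide, scan date and Dox are therefore partly confounded in progenitors. With progenitors, 307 upregulated genes were shared, 39.1% of the HE2 genes and 66.7% of the 460 progenitor genes. Among downregulated genes 54 were shared, 17.3% and 50.5% of the 107. In all 3 populations 165 genes were upregulated, among them Trh, Hdc, Ptprr and Mt2, and 22 downregulated. In HE2 alone 218 were called upregulated and 147 downregulated, although a call in one population and not in another does not show that the responses differ.

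The response in HE2 was higher than in progenitors for 62 genes (0.408% of those tested) and lower for 36 (0.237%), at adjusted P of up to 0.147. With the slide as a block 64 genes differed in place of 98, and within slide 1, 40. With the scan date as a block 72 genes differed. Of the 98, 65 were also called in HE2. Hpgd rose by 3.1 in HE2 and differed by −1.0 in progenitors, a difference of 4.10. Pla2g7, a phospholipase that inactivates platelet-activating factor, rose by 4.0 in HE2 and differed by 0.36 in progenitors. Mt2 rose by 4.58 and by 2.19. Ptprb rose by 2.59 in HE2 and by 6.21 in progenitors, a difference of −3.61. Col1a1 fell by 3.25 in HE2 and differed by 0.53 in progenitors, a difference of −3.79. Without Dox, progenitors read lower than HE2 cells for the collagen list (7.51 against 8.31) and the endothelial surface list (9.82 against 11.53). Whether starting levels limited the responses seen in progenitors was not tested. The differences of Hpgd, Mt2 and Ptprb held without any 1 array. Those of Pla2g7 (2.91 to 3.56) and Col1a1 (−3.56 to −3.45) were lost without uninduced progenitor array 1 or induced progenitor array 1. They were also lost at an adjusted P of 0.05.

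Set side by side over the 3 stages, the levels of several gene groups in induced HE2 cells lay nearer to those of uninduced HE cells than the levels of uninduced HE2 cells did. The mean log2 intensity of the 33 endothelial surface genes was 12.37 ± 0.42 (SD over 3 arrays) in uninduced HE, 11.53 ± 0.21 in uninduced HE2, 12.57 ± 0.02 in induced HE2 and 9.82 in uninduced progenitors (2 arrays). That of the 22 endothelial factors was 11.40, 10.60 ± 0.11, 11.38 ± 0.21 and 9.22 in the same order. The chemokine list read 8.28, 9.11 ± 0.09, 8.29 ± 0.11 and 9.56, and the neutrophil granule list 6.96, 8.10 ± 0.28, 7.42 ± 0.10 and 9.25. The macrophage list read 7.83, 9.24 ± 0.14, 8.87 ± 0.11 and 10.48, and stayed nearer to the level of uninduced HE2. In all, 19 of the 37 lists lay nearer to uninduced HE with Dox than without it, and 18 did not. Among the 18, the cardiac and smooth muscle list read 9.58 in uninduced HE, 8.84 in uninduced HE2 and 8.34 in induced HE2, and the epithelial list 8.77, 8.37 and 7.83. The myeloid factors read 8.53, 9.16 and 9.41, the early haematopoietic factors 10.84, 11.49 and 11.69, and the cytokine receptors 10.26, 10.62 and 11.21. The erythroid list was another of the 18, at 8.93, 9.54 ± 0.24, 10.35 ± 0.11 and 10.61, so that induced HE2 cells lay nearest to uninduced progenitors. The uninduced HE2 arrays enter both the stage difference and the Dox difference, so these levels are a description without a test.

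**Figure D5:**
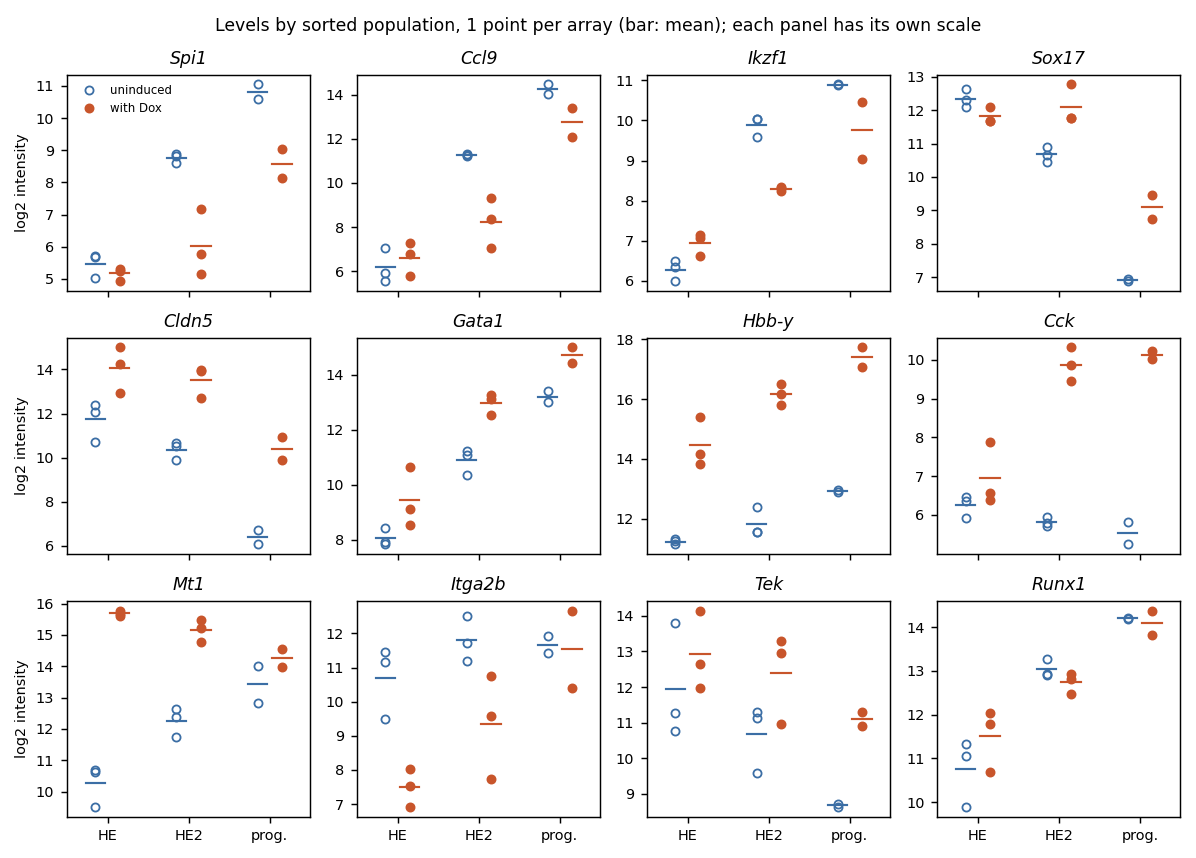
Log2 intensity (y axis) of selected genes on each array of uninduced and induced HE, HE2 and progenitor cells (x axis), 1 point an array with a line at the group mean. Spi1 is low in both HE groups, 8.76 in uninduced HE2 and 6.03 in induced HE2, while Sox17 is at 12.34 in uninduced HE, at 10.67 in uninduced HE2 and at 12.09 in induced HE2.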

How the data were processed

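The study profiled sorted HE, HE2 and progenitor cells and cultured myeloid cells, with and without Dox, on 23 one-colour mouse arrays. The authors read the scans with Agilent Feature Extraction (10.7.1.1 in the submitters' processing notes, 10.7.3.1 in the file headers), and the deposited intensity values are spot and local background medians without normalization between arrays. The deposited log2 values were background-corrected and quantile-normalized by the authors, and were used as an alternative. Here the median intensities were background-corrected (normexp, offset 16) and quantile-normalized over 23 arrays in limma 3.58.1 (R 4.3.3). Control spots were left out, outlier spots were set to missing and spots of a probe averaged. The probe with the highest mean stood for each of 20145 genes, and the 15202 genes that reached 6.5 on the log2 scale on any array were tested. Quantile normalization fixes the spread of all arrays to be the same, so a shift of most genes in one direction would be reduced.

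Group means were estimated from 22 arrays (lmFit, then eBayes, 14 residual degrees of freedom). A fit of the 6 HE2 arrays alone called 532 genes upregulated and 186 downregulated with Dox in HE2, in place of 786 and 312. The progenitor array titled a technical replicate was normalized but not fitted. Genes were called at P of at most 0.001 and at least 2-fold, as in the study's methods. Differences between responses were interaction terms of the same fit. The scripts were tested on simulated data. The number of arrays limits the precision, and the median standard error of a log2 change was 0.247.

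Named genes were the 15 largest rises and falls without overlap of the arrays, up to 4 leading members in each direction of 37 gene lists, sort markers, RUNX1, ETO and genes the study's text discusses, and the 5 largest differences from HE in each direction. Genes on a background bound are given with the bound. A few genes are not reported here and were left out of the lists. The comparison and the lists were chosen with earlier results of these data known. Alternatives covered background correction, normalization, filters, the probe rule, thresholds, the arrays fitted, slide, scan date and replicate number as blocks, each slide alone, and leaving out each array. Promoter windows are RefSeq sequences (GRCm38.p6).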

Additional observations from a re-analysis of the deposited data

Results flagged for a closer look

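Some genes answered Dox differently in HE2 than in another population, by the interaction term of the limma fit (P of at most 0.001 and at least 2-fold). Among the genes named here this held for 24 differences from HE and 12 from progenitors. The values are log2 differences between responses, HE2 minus the other population.

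Against HE, the response in HE2 was higher for the peptide hormone gene Cck (3.37), Dupd1 (2.34), Flrt3 (2.34), Upb1 (2.32), Dapk2 (2.26), Cxcl1 (2.01), the endothelial factor Sox17 (1.95) and the endothelial scavenger receptor Stab1 (1.90). It was lower for the chemokines Ccl6 (−3.72), Ccl9 (−3.44) and Ccl3 (−2.52), for Emilin2 (−3.20), Tuba8 (−2.69), Slc2a6 (−2.64), Mt1 (−2.49) and Spi1, which encodes PU.1 (−2.44). It was also lower for the IKAROS gene Ikzf1 (−2.26), the oxidase gene Ncf1 (−2.26), Itgb7 (−1.81), Col5a3 (−1.80), Usp18 (−1.66), Prph (−1.61), Spink8 (−1.57) and Ptprj (−1.12). Spi1, Ccl3, Ccl9, Tuba8 and Ncf1 read under 6.5 in uninduced HE cells, where a fall like that in HE2 could hardly be measured. Ikzf1 also had a mean under 6.5 there, and read higher with Dox in HE without overlap of the arrays. Itgb7, Col5a3, Prph, Spink8 and Mt1 rose in both stages, less in HE2.

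Of these 24 differences, 16 held without any 1 array. Those of Col5a3 (−1.82 to −1.51), Flrt3 (1.89 to 2.46), Itgb7 (−1.85 to −1.50), Prph (−1.69 to −1.20), Ptprj (−1.13 to −1.01), Spink8 (−1.52 to −1.38), Stab1 (1.70 to 1.91) and Usp18 (−1.76 to −1.34) missed the P threshold without any of 4 to 9 single arrays. Those of Flrt3 and Usp18 also missed it with the replicate number as a block. At an adjusted P of 0.05, 7 of the 24 were lost, those of Col5a3, Flrt3, Itgb7, Prph, Ptprj, Stab1 and Usp18.

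Against progenitors, the response in HE2 was higher for Hpgd (4.10), Pla2g7 (3.64), the metallothioneins Mt2 (2.39) and Mt1 (2.08), Itgb4 (1.97), Alpl (1.97), Spink8 (1.90) and Ptprr (1.83). It was lower for Col1a1 (−3.79), the endothelial phosphatase gene Ptprb (−3.61), Igfbp2 (−3.20) and Hoxb2 (−1.92). The induced progenitor group had 2 arrays, and of these 12 differences those of Hpgd, Mt2 and Ptprb held without any 1 array. At an adjusted P of 0.05 the differences of these same genes held and the other 9 were lost. With the slide as a block 7 of the 12 were lost, and with the scan date as a block 5.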

How the results depend on the processing

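Of the 156 called HE2 genes named here or selected by the naming rule, 115 kept their call without any 1 HE2 array and none changed direction under any alternative. With the mean of all probes of a gene, 11 of these calls were lost. They were those of Acvr1, Cbfa2t3, Csf1r, Csf2rb2, Efnb2, Ephb4, Etv1, Foxa2, Notch2, Ptprj and Tgfbr2. Of the 156 calls, 44 were lost with the HE2 arrays normalized and fitted apart and 39 in a fit of the 6 HE2 arrays alone. Lost in both were Klf2, Emilin2, Tagln, Tnni3, Thy1, Cxcl1, Col6a1, Itga9 and Actn1, among others. At adjusted P of 0.001, 51 were lost, with 75th percentile scaling 17 and with the deposited log2 values 6. The 786 genes upregulated with Dox in HE2 became 509 when the HE2 arrays were normalized and fitted apart, 494 at adjusted P of 0.001 and 354 within slide 1, and ranged from 604 to 809 with 1 array left out. The 312 genes downregulated with Dox in HE2 became 171 with HE2 apart, 119 at adjusted P of 0.001, 590 at 2-fold change alone, 186 in a fit of the 6 HE2 arrays alone, 138 within slide 1 and 129 within slide 2, and ranged from 231 to 292. The 150 members of the gene lists called became 90 at adjusted P of 0.001, 78 within slide 1 and 91 within slide 2, and ranged from 123 to 143. The motif share of 14.5% ranged from 12.9% to 14.5%.

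The 203 genes with a Dox response that differed from HE became 133 at adjusted P of 0.05, 0 at adjusted P of 0.001, 928 at 2-fold change alone and 49 within slide 1, and ranged from 140 to 206 with 1 array left out. The 98 genes with a response that differed from progenitors became 22, 0 and 1203 under the same 3 thresholds, 64 with the slide as a block and 40 within slide 1. They ranged from 55, without uninduced progenitor array 2, to 310, without induced progenitor array 1. Within slide 2 the progenitor difference could not be fitted, since it holds no induced progenitor array. Fewer arrays were fitted within a slide. The cause of the other changes was not tested.

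The deviations of same-numbered uninduced and induced HE2 arrays from their group means correlated at 0.361, −0.535 and −0.447. For arrays of unlike number the range was −0.379 to 0.606, highest for uninduced array 2 and induced array 3. Deviations from a mean of 3 arrays are tied to each other, so these values cannot decide whether the HE2 arrays were paired. For same-numbered arrays of uninduced HE and uninduced HE2 the correlations were 0.394, 0.795 and 0.608, so that the numbers may pair these. Between the induced groups they were 0.191, −0.476 and −0.0122. With the replicate number as a block, 768 genes upregulated with Dox in HE2 and 296 genes downregulated with Dox in HE2 were called, with 150 list members, and 218 and 94 differences from HE and progenitors. Among named genes the block ended the calls of Acvrl1, Gp5, Hoxb2 and Hspb1 in HE2, the differences of Flrt3 and Usp18 from HE and those of Itgb4 and Mt1 from progenitors.

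Signs changed for 4 genes that were not called. Erg was at −0.10 with the mean of all probes and within slide 1. Cebpa was at 0.063 with the slide block, 1.39 within slide 1 and −0.69 to 0.44 with 1 array left out. Pecam1 was at −0.58 within slide 2 and −0.29 to 1.00, and Gfi1b at −0.29 to 0.10. With 3 arrays a side, small differences in dim or variable genes such as these were not resolved.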

Other observations

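The Gimap genes, a family of GTPases expressed in lymphocytes and endothelium that lies in 1 cluster of the genome, were chosen after their values were seen. Of 7 tested Gimap genes 5 were upregulated in HE2 cells and 0 downregulated, beside 5.17% and 2.05% of all tested genes. Gimap4 rose by 2.87, from 11.61, 11.17 and 11.09 to 14.44, 13.80 and 14.23. Gimap6 rose by 2.57, from 12.33, 12.05 and 12.34 to 14.68, 14.16 and 15.59. Gimap3 (2.86) and Gimap8 (2.28) rose as well, and Gimap9 rose by 1.55, a call lost without uninduced array 2 (1.24). The groups did not overlap for any of the 5.

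Besides Nefh, several genes best known from neurons rose, also chosen after their values were seen. Rbfox1, a splicing regulator, rose by 3.05, from 7.05, 7.02 and 6.36 to 10.67, 9.55 and 9.37. Its relative Rbfox3, the neuronal marker NeuN, rose by 2.69, from 6.20, 6.56 and 7.38 to 8.92, 9.01 and 10.29. Prph, the intermediate filament peripherin, rose by 3.03 and Mapt, the microtubule protein tau, by 1.99. All 4 also read higher with Dox in HE cells, by 3.55 for Rbfox1, 2.78 for Rbfox3, 4.64 for Prph and 1.81 for Mapt.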
